A study of Mus musculus with 48 samples.

Results

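The 50 protein-coding mouse genes described here carry the names of translation initiation factors, the proteins that bring a ribosome to the start codon of an mRNA. Some have other roles, such as Eif4ebp1 and Eif4ebp2, which encode inhibitors, but all 50 are called initiation factors here. They were taken from the 47643 genes counted in every sample, 21620 of them protein-coding, as all protein-coding genes whose symbol begins with Eif followed by a digit from 1 to 6. Left out were the 4 Eif2ak kinases, 8 genes of the same name pattern that are not protein-coding, and the Y-linked Eif2s3y. The values were gene counts of ribosome-bound RNA from the dorsal hippocampus of 3 mice, obtained by translating ribosome affinity purification, in which an antibody to a tag on the ribosome pulls down ribosomes together with the mRNAs on them. All mice carried the transgene Tg(Aldh1l1-eGFP/Rpl10a) JD130Htz, in which the promoter of Aldh1l1, a gene of astrocytes, drives the ribosomal protein L10a fused to the green fluorescent protein eGFP, and in every sample the antibody was directed at GFP. Each mouse gave a sample of full astrocytes (called Astro) and a sample of perisynaptic astrocytic processes (called PAP), the fine astrocyte branches that wrap synapses. Treatment, age and sex were not given in the sources used here. Each animal and compartment was represented by 8 technical replicates, which were summed, so that each group held 3 libraries, 1 per animal, and n = 3 throughout.

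Initiation starts when eIF2 carries the initiator tRNA to the small ribosomal subunit, where eIF1, eIF1A, eIF3 and eIF5 assemble with it. The cap-binding complex eIF4F, made of eIF4E, eIF4G and the helicase eIF4A and helped by eIF4B and eIF4H, prepares the mRNA, the small subunit scans to the start codon, and eIF5B then joins the large subunit. The exchange factor eIF2B recharges eIF2, and the eIF4E-binding proteins hold back cap binding until mTOR phosphorylates them. Astrocytes translate mRNAs in their fine processes as well as in the cell body, and the design compared the ribosome-bound mRNAs of the processes with those of the whole cell.

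The Astro libraries held 18707844 to 20293538 counts and the PAP libraries 1829962 to 2980984, so that depth and compartment cannot be told apart. Biological variation, as the coefficient of variation common to all genes that edgeR estimates, was 0.335 in Astro and 1.57 in PAP. Of 10 astrocyte markers all were lower in every PAP library than in any Astro library, and 5 passed the test as lower (0 with the animal as a block, the paired fit described below); their summed level was 22200 to 30080 CPM (a gene's counts relative to the library total after TMM scaling, as all CPM values here) in Astro and 3448 to 12170 CPM in PAP. Of the 8 markers of B and plasma cells, 6 could be tested, 4 were higher in PAP (Jchain, Mzb1, Igkc and Ms4a1) and 1 lower (Ighm), or 3 and 0 with the block; their sum was 39.4 to 63.2 CPM in Astro and 2726 to 5750 CPM in PAP, while Cd79a and Ighm were at 0 in PAP. Neuronal markers summed to 666 to 1197 CPM in Astro and 462 to 1334 CPM in PAP, with Syt1 higher and Snap25 lower, neither with the block. Oligodendrocyte markers summed to 807 to 873 and 532 to 1029 CPM, microglial markers to 24.9 to 58.3 and 31.0 to 41.1 CPM with Cx3cr1, P2ry12, Tmem119 and Aif1 at 0 in PAP (3 of 7 tested were lower, 0 with the block), and endothelial markers to 2.63 to 3.58 and 1.52 to 12.3 CPM. Messenger RNAs of 76 ribosomal proteins took 0.762% to 0.850% of all counts in Astro and 6.67% to 10.5% in PAP, and 73 of the 76 were higher in PAP, or 52 with the block. The part of these differences in the results on initiation factors was not tested. In such bulk samples, fewer cells of a type and less RNA per cell cannot be told apart.

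In PAP, 11 initiation factor genes were higher than in Astro and 1 was lower. Those that rose were 7 genes of the scaffold complex eIF3 (Eif3a, Eif3e, Eif3f, Eif3g, Eif3h, Eif3k and Eif3j2), Eif4b and Eif4a1 of the mRNA-unwinding group, and the genes of 2 eIF4E-binding proteins, Eif4ebp1 and Eif4ebp2. The gene that fell was Eif1ax, for the X-linked form of the scanning factor eIF1A. None of the genes for eIF2, eIF2B, eIF2A, eIF2D, eIF5, eIF5A, eIF5B and eIF6 passed this test in either direction, although DESeq2 called Eif2d, Eif2s3x, Eif5, Eif5a and Eif6 higher. Of these genes, Eif5a was also called higher with library size alone and without PAP animal 3, Eif2s2 lower without PAP animal 1, and Eif2b5 lower without PAP animal 2. These calls used edgeR's quasi-likelihood test with a Benjamini-Hochberg adjusted p under 0.05 over all 14618 genes tested, of which 48 were initiation factors. Over all genes tested, 5.92% were called higher in PAP and 15.4% lower. The median log2 fold change (PAP minus Astro) was 0.57 over the 48 initiation factors, with 30 positive and 18 negative, and -0.53 over all genes. A gene that passes the filter on low counts through 1 compartment alone is in part selected for a difference, as Eif3j2 was through PAP. Among the 5902 genes that passed it in both, 10.2% were called higher and 4.22% lower with a median of 0.06, and of the 43 initiation factors among them 10 were higher and 1 lower with a median of 0.84.

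The calls depended on how the animals were handled. With the animal as a block, which pairs the compartments of each mouse, 0.876% of all genes were called higher and 0.0342% lower; among the initiation factors, only Eif4b remained called higher and none lower, with a median log2 fold change of 0.42 against -1.63 over all genes. When Astro animal 1, 2 or 3 was left out, only Eif3k and Eif4b remained called, against 0.881%, 0.954% and 1.05% of all genes called higher. All 12 called genes kept their direction in each alternative that could be fitted for them, which for Eif3j2 were 14 of the 17.

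A count that does not rest on the test gave the same side for more genes. In 20 of the 48 tested initiation factors (19 without Eif3j2) every PAP library lay above every Astro library, and in 5 every PAP library lay below. Over all tested genes these shares were 10.9% and 35.1%. Among genes that passed the filter in both compartments they were 21.3% and 22.9%, against 19 and 5 of the 43 initiation factors. The 5 that lay below were Eif1ax, Eif4a2, Eif4g2, Eif4a3 and Eif4h. The initiation factor mRNAs together took 0.764%, 0.697% and 0.808% of all counts in Astro animals 1, 2 and 3, and 1.41%, 1.28% and 1.09% in PAP, or 0.756% ± 0.056 against 1.26% ± 0.159 (SD, n = 3). The groups did not overlap. Without Eif4g2, the largest single contributor in Astro, the values were 0.543%, 0.497% and 0.562% in Astro and 1.32%, 1.16% and 0.899% in PAP. The libraries of one compartment also differed more among themselves in PAP: the median ratio of the highest to the lowest library was 1.32 in Astro and 2.70 in PAP over the 46 initiation factors with a count in every library, and 1.40 and 3.99 over the 6978 such genes of all kinds.

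**Figure D1:**
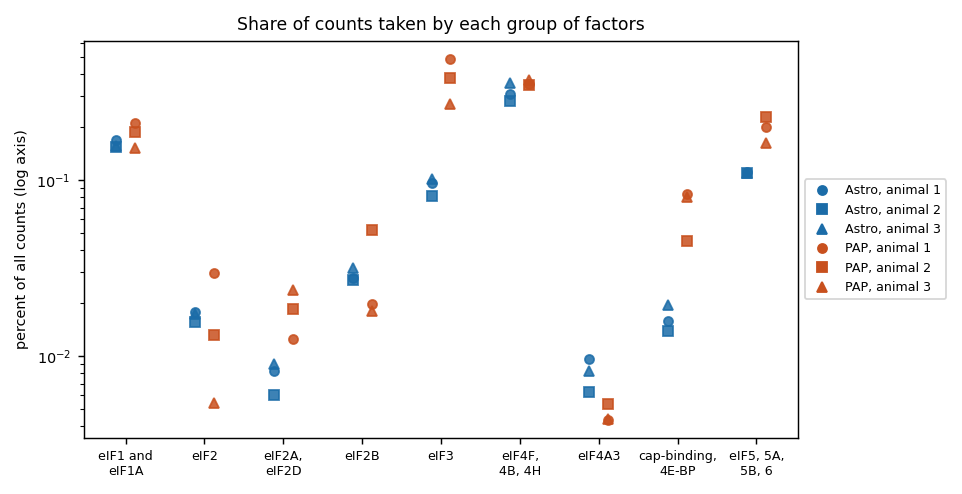
Share of all counts taken by each group of initiation factor genes (percent of a library's counts, log axis), with Astro in blue and PAP in orange and 1 point per animal (circle, square and triangle for animals 1, 2 and 3). The eIF3 group lay at 0.0811% to 0.102% in Astro and 0.272% to 0.490% in PAP, whereas the start codon group overlapped between the compartments.

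**Figure D2:**
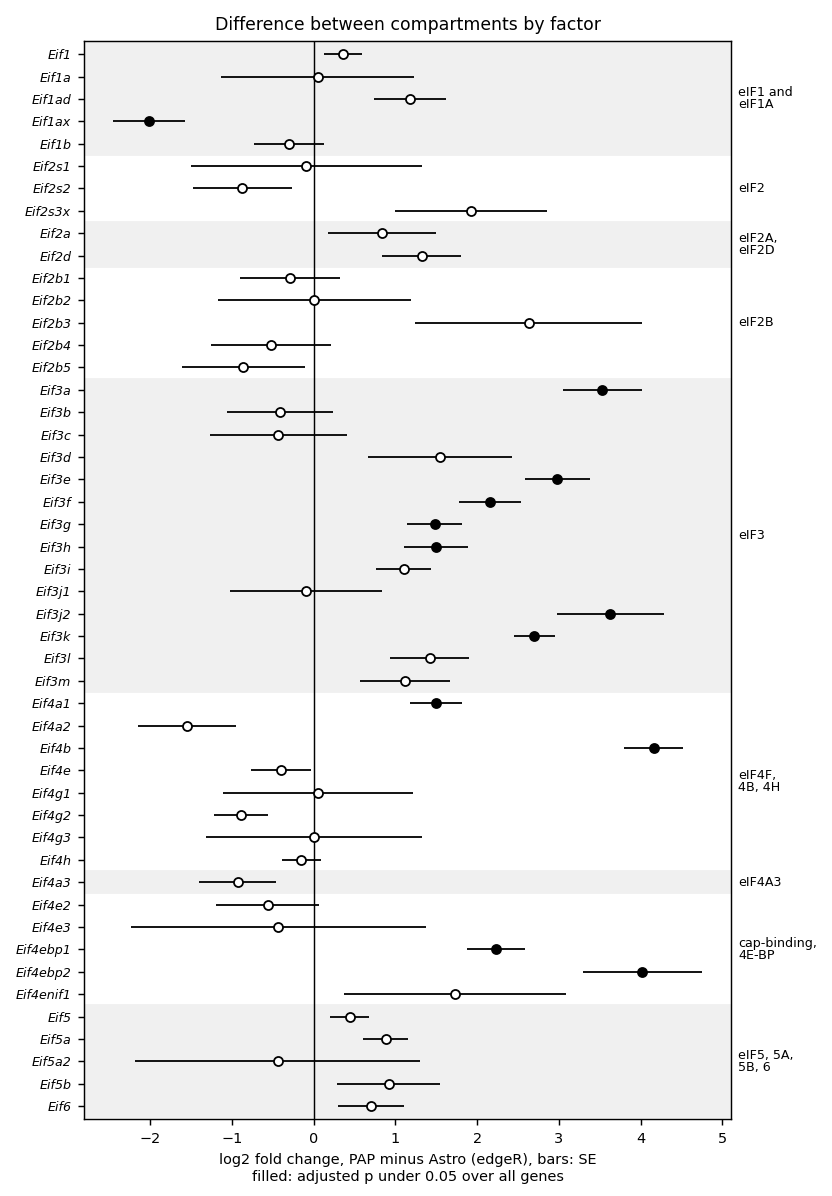
Log2 fold change (PAP minus Astro) with its SE for the 48 tested initiation factor genes, from edgeR's quasi-likelihood fit over 3 libraries per compartment, with genes called at an adjusted p under 0.05 marked. Eif4b (4.16) and Eif4ebp2 (4.02) lie highest and Eif1ax (-2.01) lowest.

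The factors that keep the scanning ribosome open and choose the start codon included the most abundant initiation factor mRNAs per length, and of the 5 genes only Eif1ax passed the test. Eif1, the guardian of start codon choice, had 1049, 1004 and 889 CPM in Astro animals 1, 2 and 3 and 1503, 1302 and 979 CPM in PAP. Its groups overlapped, and its log2 fold change of 0.36 had an adjusted p of 0.38 in edgeR's test. Per kilobase of exonic length (RPKM, which is CPM over the length in kilobases), Eif1 was the highest of all initiation factors in both compartments, at 467 ± 39.3 in Astro and 601 ± 126 in PAP (SD, n = 3). Its close paralogue Eif1b lay at 343, 273 and 305 CPM in Astro and at 121, 273 and 355 CPM in PAP, overlapping, with PAP animal 1 lowest.

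Eif1ax (ENSMUSG00000067194, chrX:159372178-159389928) encodes an eIF1A protein that works beside eIF1 in scanning. It was found at 336, 292 and 253 CPM in Astro animals 1, 2 and 3 and at 98.5, 82.1 and 37.8 CPM in PAP, so that all PAP libraries lay below all Astro libraries. The log2 fold change was -2.01 ± 0.44 (SE), with an adjusted p of 0.023 in edgeR's test and 0.21 with the animal block. Eif1a, which encodes the other eIF1A, had 54.1, 73.9 and 45.7 CPM in Astro and 161, 8.72 and 10.2 CPM in PAP, a spread in PAP that covered the Astro values on both sides. The start codon group as a whole took 0.169%, 0.154% and 0.156% of the counts in Astro and 0.213%, 0.187% and 0.152% in PAP. Eif1ad, whose product resembles eIF1A, lay above its Astro levels in every PAP library (92.4 to 107 against 37.7 to 47.1 CPM) without passing the test (adjusted p of 0.12, edgeR).

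None of the 3 subunits of eIF2, which binds GTP and the initiator tRNA, passed the test. Eif2s3x, the gamma subunit that holds GTP and the tRNA, was the least abundant in Astro at 7.64, 5.78 and 10.3 CPM, and stood at 58.4, 13.8 and 18.4 CPM in PAP, above Astro in every library (log2 fold change 1.93, edgeR adjusted p of 0.23). Eif2s1, the alpha subunit on which the stress kinases act, had 80.3, 59.4 and 74.8 CPM in Astro and 122, 80.0 and 0.329 CPM in PAP, where the last value was a single count. Eif2s2, the beta subunit, lay at 85.4 to 106 CPM in Astro and 30.8 to 97.0 CPM in PAP. In PAP all of these subunits were highest in animal 1, and animal 2 was lowest for Eif2s2 and Eif2s3x and animal 3 for Eif2s1.

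Eif2a and Eif2d encode proteins that can bring an initiator tRNA to the ribosome in place of eIF2. Eif2d was 34.3 to 43.5 CPM in Astro and 71.6 to 129 CPM in PAP, and Eif2a was 31.5 to 48.3 and 44.6 to 135 CPM, the former without overlap and the latter with it, and neither passed the test. Eif2a overlaps Serp1 on the opposite strand, and reads of the pair cannot be told apart where counting does not use strand.

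The 5 subunits of eIF2B, which exchanges GDP for GTP on eIF2 and is the target of the integrated stress response, showed no call and a wide spread in PAP. Eif2b5, the catalytic epsilon subunit and the highest of the complex per length in Astro, had 112, 151 and 131 CPM in Astro and 21.8, 152 and 42.8 CPM in PAP. Eif2b3, the gamma subunit, had 11.3, 11.3 and 15.5 CPM in Astro and 9.14, 218 and 8.55 CPM in PAP, with only PAP animal 2 above Astro (log2 fold change 2.63, adjusted p of 0.28, edgeR). Eif2b2, the beta subunit, had 56.1, 39.7 and 45.7 CPM in Astro and 53.3, 1.54 and 87.2 CPM in PAP, with PAP animal 2 lowest. The complex took 0.0278%, 0.0271% and 0.0316% of counts in Astro and 0.0198%, 0.0519% and 0.0181% in PAP, overlapping.

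The eIF3 complex, the largest initiation factor, holds the small subunit together with the other factors and recruits eIF4F. The counts of its 14 genes made up 0.0959%, 0.0811% and 0.102% of the Astro libraries of animals 1, 2 and 3, and 0.490%, 0.379% and 0.272% of the PAP libraries, a ratio of mean shares of 4.1, and 7 of the 14 passed the test as higher, with a median log2 fold change of 1.49. Without Eif3j2 these were 6 of 13 and a median of 1.48, where 10.2% of all genes that passed the filter in both compartments were higher. With the animal as a block, 0 of the 14 passed. All PAP libraries lay above all Astro libraries in every gene of the complex but 4, which were Eif3b, Eif3c, Eif3d and Eif3j1, whose groups overlapped. Without Eif3j2 this held for 9 of 13, where it held for 21.3% of all genes that passed the filter in both compartments.

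Eif3k (ENSMUSG00000053565, chr7:28971372-28981864), a small peripheral subunit, had the least spread in PAP of the genes that rose. It was counted at 96.2, 83.3 and 90.3 CPM in Astro animals 1, 2 and 3 and at 575, 628 and 550 CPM in PAP. The log2 fold change was 2.70 ± 0.25, with adjusted p values of 0.0037 in edgeR's test and 0.059 with the block, and it passed in 16 of the 17 alternative fits. Eif3a (ENSMUSG00000024991, chr19:60761117-60790658), the largest subunit and backbone of the complex, had 47.7, 67.9 and 73.3 CPM in Astro and 1192, 543 and 453 CPM in PAP. Its PAP animal 1 was far above the other 2, and all PAP libraries were above Astro, for a log2 fold change of 3.53 ± 0.48 (edgeR adjusted p of 0.016, and 0.079 with the block).

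Eif3e (ENSMUSG00000022336, chr15:43250058-43282719), a core subunit that also binds eIF4G, had 80.5, 58.2 and 64.0 CPM in Astro and 693, 593 and 315 CPM in PAP. PAP animal 3 was the lowest and still above every Astro library, and the log2 fold change was 2.98 ± 0.40 (edgeR adjusted p of 0.015, block 0.067). Eif3f (ENSMUSG00000031029, chr7:108934417-108942951), also of the core, had 76.7, 60.7 and 70.7 CPM in Astro and 435, 272 and 223 CPM in PAP, with a log2 fold change of 2.16 ± 0.38 (edgeR adjusted p of 0.021, block 0.20). Both showed the same order of PAP animals as Eif3a, with animal 1 highest and animal 3 lowest.

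Eif3g (ENSMUSG00000070319, chr9:20894349-20898623), which carries an RNA-binding domain, had 103, 85.5 and 103 CPM in Astro and 305, 312 and 195 CPM in PAP, a log2 fold change of 1.48 ± 0.34 (edgeR adjusted p of 0.025, block 0.21). Eif3h (ENSMUSG00000022312, chr15:51786558-51865523), another core subunit, had 116, 80.8 and 81.5 CPM in Astro and 365, 227 and 195 CPM in PAP, a log2 fold change of 1.5 ± 0.39 (edgeR adjusted p of 0.038, block 0.21). In both genes the lowest PAP library, of animal 3, was above the highest Astro library. These were the least stable calls of the complex, with Eif3g passing in 10 and Eif3h in 9 of the 17 alternative fits; both missed the threshold without a filter on low counts (adjusted p of 0.082 and 0.11) and with limma voom (0.075 and 0.15), and Eif3h also without PAP animal 1 (0.063). Eif3i, a WD-repeat subunit, also lay above Astro in every PAP library, at 122 to 161 CPM in Astro and 208 to 369 CPM in PAP, where animal 1 was lowest. With a log2 fold change of 1.10 and an adjusted p of 0.067 it did not pass edgeR's test, but it passed in 5 of the 17 alternative fits.

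Eif3j2 (ENSMUSG00000043424, chr18:43475418-43477796), for a copy of the loosely bound subunit eIF3j, had 0.428, 0.584 and 0.505 CPM in Astro, from 8, 10 and 10 counts, and 7.11, 8.21 and 3.95 CPM in PAP, from 14, 16 and 12 counts. It passed the filter on low counts only through PAP and was thus in part selected for a difference. Its log2 fold change of 3.63 ± 0.65 (edgeR adjusted p of 0.021, block 0.23) is therefore given as a description. Reads of Eif3j2 and the near-identical Eif3j1 may have been split between them in counting. Eif3j1 lay at 32.3 to 34.6 CPM in Astro and at 7.62, 19.0 and 68.1 CPM in PAP.

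Other large subunits did not pass the test. Eif3c, the partner of Eif3a in the backbone, had 57.3, 57.5 and 62.5 CPM in Astro and 17.8, 96.9 and 17.1 CPM in PAP, and Eif3b, the scaffold for the g and i subunits, had 72.4 to 94.2 CPM in Astro and 20 to 90.9 CPM in PAP. Eif3d, which can itself bind the cap, had 42.5 to 53.2 CPM in Astro and 246, 145 and 17.4 CPM in PAP, and an antisense gene overlaps it. Strand was not stated, here as for 13 initiation factor genes in all that have a gene on the opposite strand, none of them called. Taken per length, the SD over the 14 subunits of log2 counts per kilobase was 2.06, 1.84 and 1.95 in Astro animals 1, 2 and 3 and 2.27, 1.94 and 2.02 in PAP, overlapping; without Eif3j1 and Eif3j2 it was 1.06, 0.90 and 0.93 in Astro and 1.53, 1.39 and 1.75 in PAP, without overlap. PAP libraries also varied more over genes of all kinds, and the part of that in this spread was not tested.

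**Figure D3:**
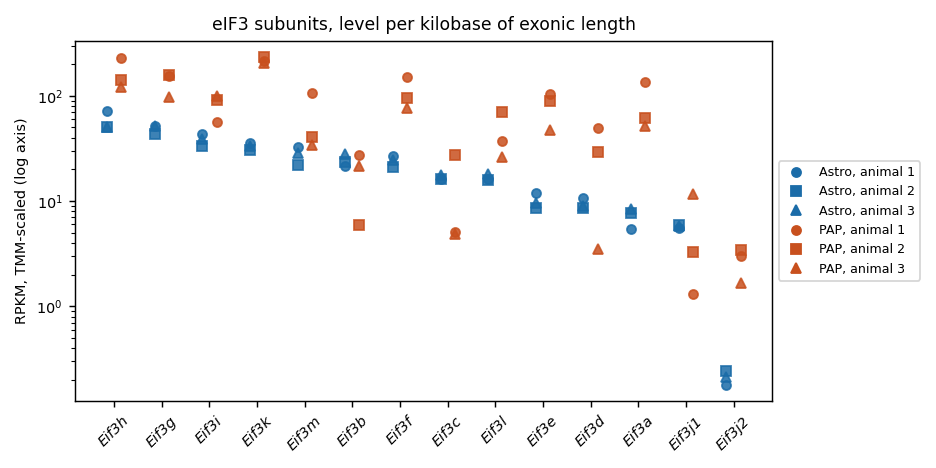
Level of the 14 eIF3 subunit genes in RPKM (CPM per kilobase of exonic length, log axis), with Astro in blue and PAP in orange and 1 point per animal (circle, square and triangle for animals 1, 2 and 3). Eif3k, Eif3a and Eif3e stand apart between the compartments, while Eif3b, Eif3c, Eif3d and Eif3j1 overlap.

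Among the factors that prepare the mRNA, Eif4b gave the largest log2 fold change of all initiation factors with all libraries used, and no cap-binding protein passed the test. Eif4ebp2 was larger than Eif4b without Astro animal 3 (4.56 against 4.39) and without PAP animal 2 (4.33 against 4.15). Eif4b (ENSMUSG00000058655, chr15:102073773-102097173) encodes eIF4B, which stimulates the helicase eIF4A. It had 65.8, 57.8 and 89.3 CPM in Astro animals 1, 2 and 3 and 1687, 1186 and 941 CPM in PAP, so that the lowest PAP library was far above the highest Astro library. The log2 fold change was 4.16 ± 0.36, with an adjusted p of 0.0029 in edgeR's test and 0.020 with the block, and it passed in all 17 alternative fits. By mean CPM among all genes, Eif4b moved from rank 3211 in Astro to rank 66 in PAP. Eif4h, the related cofactor of eIF4A, had 313 to 356 CPM in Astro and 270 to 310 CPM in PAP, just below Astro in every library, with a log2 fold change of -0.15 that did not pass (adjusted p of 0.76, edgeR).

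Of the closely related eIF4A helicases, Eif4a1 rose and Eif4a2 lay lower in PAP without passing the test. Eif4a1 (ENSMUSG00000059796, chr11:69666936-69672423) had 92.7, 71.7 and 96.2 CPM in Astro and 244, 276 and 216 CPM in PAP, all above Astro, a difference of 1.5 ± 0.32 on the log2 scale (edgeR adjusted p of 0.022, block 0.21). It passed in 10 of the 17 alternative fits, and missed the threshold without a filter (0.078) and with limma voom (0.090). Eif4a2 had 172, 156 and 201 CPM in Astro and 21.8, 56.9 and 101 CPM in PAP, below Astro in every library but with a log2 fold change of -1.55 that did not pass (adjusted p of 0.13, edgeR). It was called lower in 2 of the 17 alternative fits, DESeq2 (adjusted p of 0.026) and edgeR without PAP animal 3 (0.036). The log2 ratio of Eif4a1 to Eif4a2 per length was -0.59, -0.82 and -0.76 in Astro and 3.75, 2.57 and 1.40 in PAP, so that Eif4a2 was the higher of the pair in every Astro library and Eif4a1 in every PAP library. This ratio was not tested, and Eif4a2 overlaps Rfc4 on the opposite strand.

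Of the scaffold proteins, Eif4g2, which encodes a relative of eIF4G that cannot bind eIF4E, was the most abundant initiation factor mRNA in Astro by CPM at 2391, 2184 and 2426, rank 25 of all genes. In PAP it had 827, 1083 and 1877 CPM, below Astro in all libraries, with a log2 fold change of -0.89 that did not pass edgeR's test (adjusted p of 0.12). DESeq2 called Eif4g2 lower (adjusted p of 0.039), as did edgeR without PAP animal 3 (0.018). Eif4g1, the main scaffold, had 55.1, 52.4 and 102 CPM in Astro and 52.8, 162 and 3.29 CPM in PAP, and Eif4g3 had 44.6, 39.4 and 38.3 CPM in Astro and 44.2, 0.513 and 78.3 CPM in PAP. In PAP these scaffolds were thus at nearly opposite extremes in animals 2 and 3, and neither gave a direction. Eif4e, the cap-binding protein, had 184 to 213 CPM in Astro and 93.9, 195 and 171 CPM in PAP. The eIF4F group took 0.309%, 0.283% and 0.355% of counts in Astro and 0.353%, 0.348% and 0.373% in PAP, overlapping, and 2 of its 8 genes passed the test as higher (1 with the block), where 5.92% of all tested genes did. Eif4a3, which belongs to the exon junction complex rather than to eIF4F, had 68.3 to 105 CPM in Astro and 40.6 to 50.3 CPM in PAP without overlap (adjusted p of 0.26, edgeR). Only DESeq2 called Eif4a3 lower (adjusted p of 0.031).

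Among the genes that hold back cap binding, both eIF4E-binding proteins that could be tested rose, and neither passed with the block; 5.92% of all tested genes were higher. Eif4ebp2 (ENSMUSG00000020091, chr10:61428491-61452661), the form most prominent in brain, had 13.8, 13.8 and 31.8 CPM in Astro and 576, 134 and 256 CPM in PAP, all above Astro but differing by several fold among themselves. Its log2 fold change was 4.02 ± 0.73 (edgeR adjusted p of 0.021, block 0.12). Eif4ebp1 (ENSMUSG00000031490, chr8:27260329-27276674) was the highest of this group per length in Astro and had 44.0, 39.4 and 48.5 CPM there and 180, 193 and 247 CPM in PAP, with little spread, and rose by 2.23 ± 0.36 (edgeR adjusted p of 0.021, block 0.21). The log2 ratio of Eif4ebp2 to Eif4ebp1 per length was -3.07, -2.90 and -2.01 in Astro and 0.28, -1.93 and -1.35 in PAP, without overlap and not tested. Eif4ebp3 had 12, 9 and 13 counts in Astro (0.526 to 0.657 CPM) and none in PAP, where a count of 0 allows up to 0.987 to 1.54 CPM, so that no difference was detectable at this depth; the filter on low counts left it out, and it passed in none of the 4 alternative fits that kept it (adjusted p from 0.075 to 0.15). That upper limit, as all such limits here, covers counting error only.

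None of the other cap-binding proteins passed the test. Eif4e2, a form that represses translation, had 62.1 to 86.5 CPM in Astro and 19.3 to 66.2 CPM in PAP. Eif4e3 had 6.20, 18.5 and 11.4 CPM in Astro and 0, 0.513 and 26.0 CPM in PAP. Eif4enif1, which carries eIF4E into the nucleus, had 18.5 to 27.5 CPM in Astro and 2.03, 33.3 and 191 CPM in PAP, where animal 3 was far above the others. Eif4e1b was at 0 in all 6 libraries, which allows up to 0.152 to 0.175 CPM in Astro and 0.987 to 1.54 CPM in PAP.

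The factors of subunit joining and the related eIF5A and eIF6 took 0.111%, 0.111% and 0.110% of counts in Astro and 0.202%, 0.228% and 0.163% in PAP, without overlap, but none of the 5 genes passed. Eif5a, for the hypusinated factor that relieves stalled ribosomes, had 552, 567 and 530 CPM in Astro and 1049, 1285 and 702 CPM in PAP, with all PAP libraries above Astro and a log2 fold change of 0.88 (edgeR adjusted p of 0.071). Eif5, the GTPase-activating partner of eIF2, was also higher in every PAP library, at 356 to 495 CPM in Astro and 572 to 621 CPM in PAP (log2 fold change 0.44, adjusted p of 0.29, edgeR). Eif5a2, the paralogue of Eif5a, had 52.8, 33.6 and 42.1 CPM in Astro and 7.62, 87.2 and 0 CPM in PAP, overlapping. Eif6, which keeps the large subunit from joining early, had 67.6 to 85.7 CPM in Astro and 101 to 155 CPM in PAP, and Eif5b, the joining GTPase, had 39.1 to 72.3 and 45.1 to 174 CPM.

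**Figure D4:**
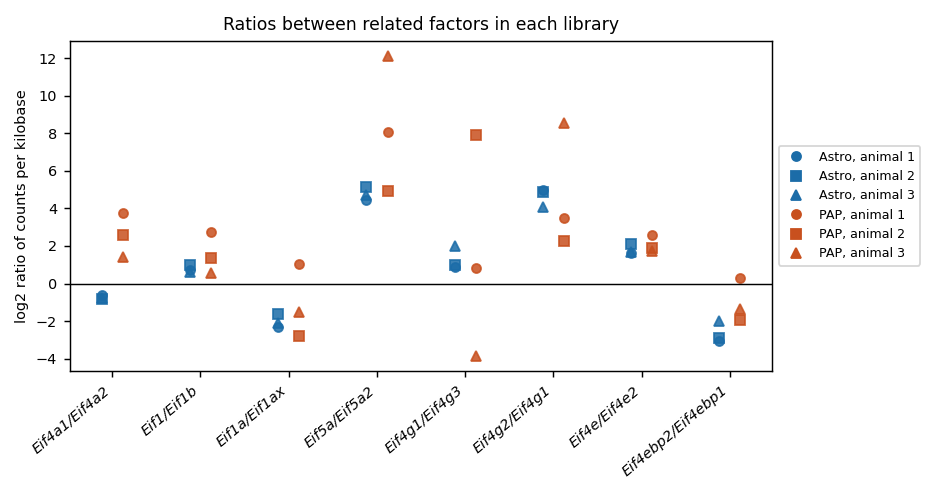
Log2 ratio per length of 8 pairs of related initiation factor genes in each library, with Astro in blue and PAP in orange (circle, square and triangle for animals 1, 2 and 3). The Eif4a1 to Eif4a2 and Eif4ebp2 to Eif4ebp1 ratios do not overlap between compartments, whereas the other 6 do.

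The 11 genes that rose had a median exonic length of 2891 bases, from 1612 to 8731, and the other 37 tested had a median of 4951 bases, from 1125 to 11063, so that the ranges overlapped widely; no test was made. Their median level in Astro was 69.4 CPM against 69.8 CPM. In PAP, 9 of the 11 were lowest in animal 3 and 6 were highest in animal 1, against 15 and 12 of the other 37, as a description of the libraries that also made the calls. Both held, so that animal 1 was highest and animal 3 lowest, for 5 of the 11 and 8 of the other 37. Other values took the same order over the PAP libraries: B and plasma cell markers summed to 5750, 3537 and 2726 CPM in animals 1, 2 and 3, and ribosomal protein mRNAs made up 10.5%, 9.32% and 6.67% of counts. Astrocyte markers took the reverse order, at 3448, 7491 and 12170 CPM, and animal 3 had the most counts. The part of these in the results was not tested. There were 7 initiation factors with 3 counts or fewer in at least 1 PAP library, among them Eif2s1, Eif2b2, Eif4g3 and Eif5a2, so that their values in those libraries rest on few counts.

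Many mRNAs of the translation apparatus begin with a pyrimidine stretch, the TOP motif, through which mTOR and the binding protein LARP1 control their translation, so the annotated starts were searched for one. The stretch was a C followed by at least 4 C or T, on the strand of the gene, beginning within 5 bases of a RefSeq start (GRCm38.p6). Starts of 38 of the 50 genes were searched, and 9 of the 38 (23.7%) held the stretch, against 21.2% of the 27025 genes with a start in the table. Of the 11 genes that rose, 7 were searched and 1 of these, Eif3f, held the stretch. Entries for Eif1a, Eif2b3, Eif3e, Eif3h, Eif3i, Eif3j2, Eif4e1b, Eif4e3, Eif4ebp1, Eif4ebp3, Eif4g2 and Eif6 are missing. Shown are the 30 bases around the start, 5′ to 3′ on the gene's strand, of the 7 genes that rose and were searched. The same is given for Eif1ax, which fell, and for Eif2s3x and Eif3l, which held a stretch. Capitals mark the stretch.
Eif4b, chr15:102073758-102073787, plus strand: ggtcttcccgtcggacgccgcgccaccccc
Eif3a, chr19:60790679-60790708, minus strand: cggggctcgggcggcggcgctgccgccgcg
Eif3k, chr7:28981874-28981903, minus strand: aaaacaaccggcgctggtgctgaaagcgcc
Eif3f, chr7:108934400-108934429, plus strand: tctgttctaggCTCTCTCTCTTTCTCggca
Eif3g, chr9:20898576-20898605, minus strand: tctttacccgggctgggagctgcgtggagt
Eif4a1, chr11:69672409-69672438, minus strand: acaaagtaacgtcacgtcgagttgcagagc
Eif4ebp2, chr10:61452655-61452684, minus strand: ggtatcgcagcgggacgaccgggcgagagc
Eif1ax, chrX:159372163-159372192, plus strand: gaggaggaggagggcggggagaagccccgc
Eif2s3x, chrX:94212637-94212666, minus strand: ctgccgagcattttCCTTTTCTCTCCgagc
Eif3l, chr15:79075208-79075237, plus strand: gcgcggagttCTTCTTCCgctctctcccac
Within 5 bases of the annotated start, no such stretch begins in Eif4b, with the largest rise when all libraries were used. None begins in Eif3k, with the least spread in PAP of the genes that rose. Eif3f and the uncalled Eif2s3x hold the longest of those shown. Pyrimidine runs further from a start, as in the Eif4b window, were not counted. A stretch is a description of these letters, and its absence says only that it is not at this annotated start.

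Regulators and partners of initiation were counted beside the factors, in a list of 38 genes that held the eIF2 kinases, the mTOR pathway and the poly(A)-binding proteins. Of the 38, all tested, 4 were higher in PAP and 2 lower, with a median log2 fold change of 0.09, against 5.92% and 15.4% of all tested genes. Of the 29 that passed the filter on low counts in both compartments, 4 were higher and 0 lower, with a median of 0.57, which is near the 10.2% and 4.22% of all such genes. Pabpc1, for the main poly(A)-binding protein, which bridges the mRNA tail to eIF4G, had 69.9, 64.9 and 68.5 CPM in Astro and 3953, 2389 and 2125 CPM in PAP, and rose by 5.38 ± 0.34 (edgeR adjusted p of 0.0020, block 0.015). It was the only gene of the list that passed with the block. Its relative Pabpc4 had 3.85, 6.89 and 5.86 CPM in Astro and 57.9, 29.8 and 119 CPM in PAP, and rose by 3.63 ± 0.83 (edgeR adjusted p of 0.026, block 0.21).

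Larp1, for the protein that binds TOP mRNAs, had 36.4, 56.3 and 49.4 CPM in Astro and 354, 129 and 172 CPM in PAP (log2 fold change 2.21 ± 0.51, edgeR adjusted p of 0.027, block 0.21). Serbp1, for an mRNA- and ribosome-binding protein, had 129, 155 and 149 CPM in Astro and 800, 521 and 596 CPM in PAP (2.15 ± 0.28, edgeR adjusted p of 0.014, block 0.13). In all 4 genes every PAP library was above every Astro library. The kinase gene Mtor, whose product releases eIF4E from its binding proteins, had 11.7, 10.7 and 14.5 CPM in Astro and 3 counts or fewer in each PAP library, so that a floor of 3 counts in each PAP library put it at least 9.1-fold lower. Eif2ak4, for the eIF2 kinase GCN2 that senses uncharged tRNA, had 2.89, 4.50 and 2.37 CPM in Astro and 0 in every PAP library, by that floor at least 2.41-fold lower. Mtor and Eif2ak4 passed the filter only through Astro and were thus in part selected for a difference, and neither passed with the block.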

How the data were processed

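The deposited files held raw counts per gene, whole numbers with no scaling, for 48 samples, per the file headers. Per the submitters' processing notes, bcl2fastq 2.18.0.12, Trim Galore 0.4.1, STAR 2.5.2b, SAMtools, HTSeq 0.5.3 and the mm10 build were used; annotation and strand setting are not given in the sources used here. Per the labels' protocols, lysates were cleared over columns without antibody and with unspecific IgG, RNA was amplified with SMART-Seq v4, and libraries were made with Nextera XT; molecular identifiers are not mentioned, so counts were treated as reads.

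Within technical replicates 1 to 4 and 5 to 8 of a library the counts differed by little more than counting noise (dispersion index 1.01 to 1.04), and over all 8 by more (1.33 to 1.43 in Astro, 1.09 to 1.13 in PAP). Counts of the 8 technical replicates were summed per animal and compartment. Symbols and positions came from GENCODE M21 on GRCm38, which held 47224 of the 47643 IDs (99.12%, with 99.86% of counts). Genes passing edgeR's filterByExpr at a minimum count of 10 were scaled by TMM and tested with the quasi-likelihood test in edgeR 4.0.16 (R 4.3.3), group only, with Benjamini-Hochberg adjustment at 0.05; the SE is the absolute log2 fold change over the square root of F. RPKM used exonic length and ratios a pseudocount of 1 count. Alternatives were other scalings, filters, DESeq2 1.42.0, voom in limma 3.58.1, libraries thinned to 1829962 counts, subsets of technical replicates, left-out libraries and the animal block. The labels give the compartments of each animal the same number, so that the pairing comes from the animal; their deviations from the group means correlated at 0.0327, 0.0185 and -0.0272.

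The genes, lists and groups were chosen with earlier results of these data known. Genes named were all called initiation factors, the highest per length in each group, fixed pairs of paralogues, and called partner genes (at most 4 per direction); other initiation factors given with values were chosen after their values were seen. Only edgeR's quasi-likelihood fit without the block was run on simulated data. These had equal variation in both compartments, unlike the libraries used here, and their values are not given.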

Additional observations from a re-analysis of the deposited data

How the results depend on the processing

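With the animal as a replicate block, 128 genes were higher and 5 lower in PAP, and 1 initiation factor was higher and 0 lower; thinned to equal depth with the block these were 168, 8, 3 and 0. Thinning alone left 980 genes lower. DESeq2 called 1685 genes higher and 3456 lower, with 19 and 4 initiation factors. Without a filter 571 genes were higher, with a mean of at least 100 counts 826 were lower, and limma voom called 0 initiation factors lower. Leaving out each library in turn gave 114 to 1251 genes higher, 1 to 3335 lower, 2 to 14 initiation factors higher and 0 to 4 lower. The difference in the spread of eIF3 subunits was 0.13, 0.445 when thinned and 0.593 without Eif3j1 and Eif3j2. Leaving out 1 library put it at 0.034 to 0.199. Some genes near 0 changed sign. With the block Eif2b2 went from 0.01 to -0.89. Eif1a, Eif4g1 and Eif4g3 gave -0.117, -0.120 and -0.155 without a filter, -1.226, -1.295 and -1.616 with voom, -1.392, -0.713 and -0.966 with the block, -1.103, -0.385 and -0.726 thinned with the block, and -0.132, -0.089 and -0.132 with technical replicates 5 to 8. Leaving out a library gave -2.652 to 0.504 for Eif1a, -1.384 to 0.551 for Eif4g1, -0.933 to 0.526 for Eif4g3, -3.587 to 0.078 for Eif5a2, -0.148 to 1.788 for the log2 ratio of Eif1a to Eif1ax, -2.801 to 3.071 for Eif4g1 to Eif4g3 and -1.782 to 1.358 for Eif4g2 to Eif4g1, whose difference was also -0.071 thinned and -0.026 with technical replicates 1 to 4. The causes were not tested. The median log2 fold change of all genes moved from -0.53 to -0.46 with DESeq2's size factors and -0.38 with library size alone. Calls lost with the block are given beside the results. The 1829962 to 2980984 counts of the PAP libraries limit genes near 3 counts.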
